A study of Mus musculus with 6 samples.

Results

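The 9 genes described here encode secreted antagonists of bone morphogenetic proteins (BMPs): *Grem1*, *Nbl1*, *Sostdc1*, *Chrd*, *Chrdl1*, *Chrdl2*, *Bmper*, *Twsg1* and *Nog*. They were chosen by name for what their proteins do, with earlier results of these data known. All 9 are among the 20327 gene symbols with tag counts. The study itself already reported *Grem1* and *Bmp4* as elevated in IL-11+ fibroblasts sorted in this way. The libraries compare EGFP-Positive with EGFP-Negative stromal cells of the colon, called IL-11+ and IL-11- fibroblasts, to show how IL-11-producing fibroblasts of colitis differ from their neighbours. All mice were C57BL/6 and carried the *Il11-Egfp* reporter, a bacterial artificial chromosome with *Egfp* inserted at *Il11*. Male animals of 9 to 15 weeks drank 1.5% dextran sulfate sodium (DSS), which injures the colonic epithelium, for 5 days and then regular water, and cells were sorted on day 7. Both groups were live (DAPI-negative) and negative for CD45, CD31, EpCAM and Ter119, so that leukocytes, endothelium, epithelium and erythroid cells were gated out, whereas other mesenchymal cells were not. IL-11+ cells were those in which the reporter was on, and the methods describe that sort as less than fully pure. There were 3 libraries per group, from 3 mice according to the methods.

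BMPs are dimeric ligands that signal through receptor serine/threonine kinases to SMAD transcription factors. In the colon their activity is highest near the luminal surface, where it favours epithelial differentiation, and lowest around the crypt base, where stromal cells secrete antagonists that bind the ligands and keep them from their receptors. Antagonists of the DAN family fold around a cystine knot, those of the chordin family carry repeated cysteine-rich domains, and noggin covers the receptor-binding faces of the ligand.

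Polyadenylated RNA was read by 5′Tag-seq, which counts sequence tags from cDNA. Tags summed to 1057170, 1078179 and 1169817 for replicates 1, 2 and 3 of the IL-11- group, and to 1046538, 1022851 and 1049048 for those of the IL-11+ group. A count of 3 tags, used here as the floor, stands at 2.56 to 2.93 CPM, scaled to a library's total. Floors and counting intervals cover counting error only and leave out variation between libraries. PCR copies of a tag are not independent molecules, so the intervals can be too narrow even for counting error. Normalized CPM below are CPM of the tags in tested genes after TMM scaling, which corrects for differences in RNA composition. *Il11*, which checks the sort, had 28, 51 and 89 tags in the IL-11- libraries and 1357, 732 and 2658 tags in the IL-11+ libraries, with no overlap. In bulk samples such as these, fewer cells of a type and less RNA per cell cannot be told apart.

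*Grem1* and *Chrdl2* were higher and *Chrdl1* was lower in IL-11+ fibroblasts. The groups overlapped for *Twsg1* and *Nbl1*. The values of *Chrd* and *Bmper* were lower in IL-11+ fibroblasts without passing the test. Those of *Nog* and *Sostdc1* were lower at too few tags to enter it, and *Sostdc1* was called lower only where no minimum of tags was set. Of the 9 genes, 7 reached 10 tags in 3 or more of the 6 libraries and entered edgeR's quasi-likelihood test. A gene was called when its Benjamini-Hochberg adjusted p over all 9334 tested genes was under 0.05 and its fold change over 2. By this rule 2 of the 7 were higher, beside 3.44% of all tested genes, and 1 was lower, beside 6.37%. Counting instead the genes whose groups did not overlap, 2 of the 7 lay higher in IL-11+ libraries, beside 14.5% of all tested genes, and 3 lay lower, beside 16.7%. *Chrd* and *Chrdl1* reached 10 tags only in IL-11- libraries, the group in which they are higher, so these counts are a description and support no statement about antagonists as a class. Their log2 fold changes had a median of 0.01, against −0.01 for all tested genes. A comparison of a single value between 3 and 3 libraries by an exact two-sided permutation test cannot give a p below 0.1, and 0.25 is the smallest p when only libraries of the same replicate number are exchanged.

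**Figure D1:**
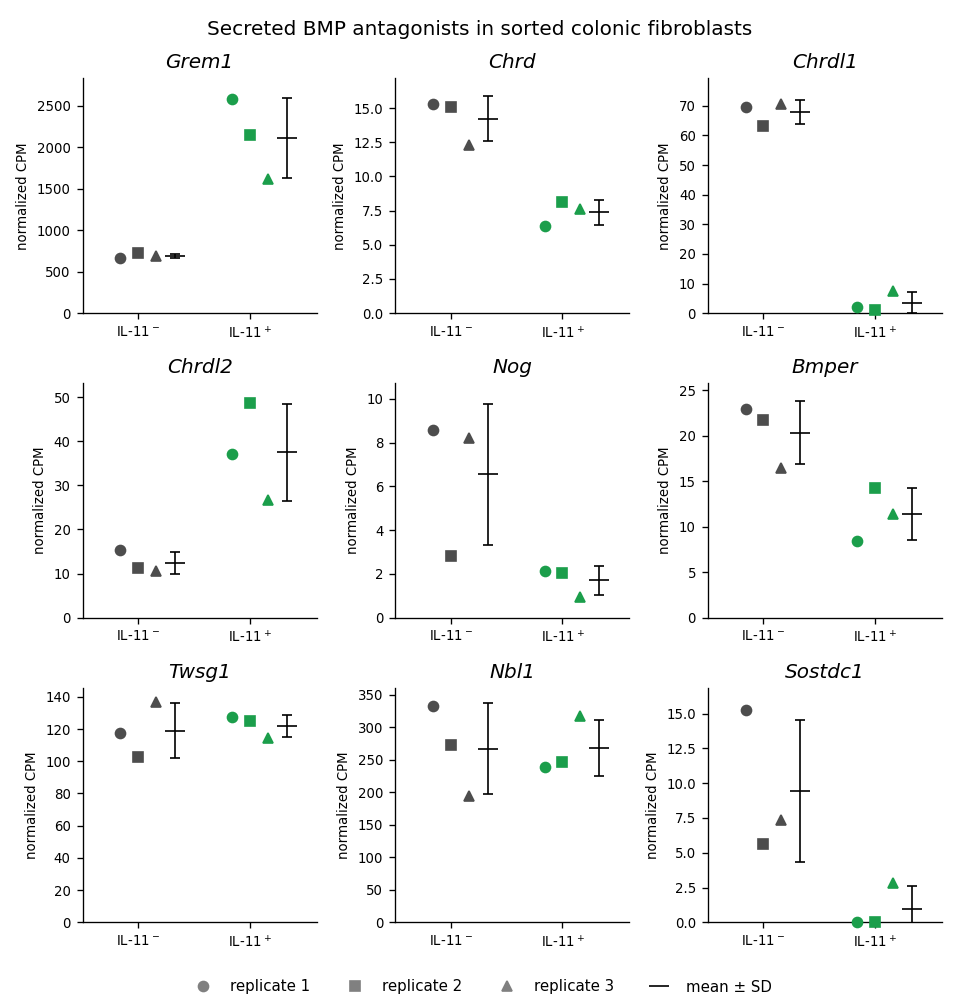
Normalized CPM (linear axes that start at 0 and differ between panels) of the 9 antagonist genes in each IL-11- (grey) and IL-11+ (green) library. Symbols mark the replicate number and black bars the mean ± SD (n = 3 libraries), cut off at 0 for *Sostdc1*, whose SD exceeds its mean in IL-11+ fibroblasts; *Grem1* and *Chrdl2* lie higher and *Chrdl1* lower in every IL-11+ library, whereas *Twsg1* and *Nbl1* overlap.

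Among the DAN family, *Grem1* encodes gremlin 1, which the stroma beneath colonic crypts is known to secrete. It had 697, 764 and 839 tags in replicates 1, 2 and 3 of the IL-11- group, and 2432, 2121 and 1690 tags in those of the IL-11+ group. Every IL-11+ library held more than every IL-11- library, and the IL-11+ libraries spread more widely, from 1612 to 2578 normalized CPM, than the IL-11- libraries, from 665.5 to 719.8. Between libraries of the same replicate number, the IL-11+ library was 3.87-fold higher for replicate 1, 2.99-fold for replicate 2 and 2.34-fold for replicate 3. The log2 fold change was 1.61 (SE 0.188, edgeR's adjusted p = 7.47e-06), and 122 of the 321 genes called higher had a larger one. Only 11 of those 321 genes had more tags over the 6 libraries. The order of *Grem1* within the IL-11+ group was not that of *Il11*, since replicate 3 had the fewest *Grem1* tags and the most *Il11* tags.

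*Nbl1*, the founding member of the DAN family, did not differ beyond the spread between libraries. It had 349, 290 and 236 tags in the IL-11- libraries and 226, 243 and 333 tags in the IL-11+ libraries. The groups overlapped, and the log2 fold change was 0.01 (SE 0.196, edgeR's adjusted p = 0.984). Its sign was not stable, with log2 fold changes from −0.18 without IL-11- replicate 3 to 0.20 without IL-11- replicate 1. *Sostdc1* encodes a BMP antagonist that also inhibits Wnt signalling at its coreceptors, and it was too rare to enter the test. Where no filter was set it was called lower (log2 fold change −3.04, edgeR's adjusted p = 0.00167). For *Grem1* that fit gave an adjusted p from edgeR of 2.11e-17, against 7.47e-06 in the main fit, at a similar log2 fold change. Smaller values were also given for *Chrdl1* and *Chrdl2*, and larger ones for *Chrd* and *Bmper*. Adjusted p without a filter, here and below, are thus not comparable with those of the main fit. *Sostdc1* had 16, 6 and 9 tags in the IL-11- libraries and 0, 0 and 3 tags in the IL-11+ libraries. All 3 IL-11+ libraries were at or under the floor, and the groups did not overlap. Summed over the libraries, 31 against 3 tags is a ratio of 9.25 of IL-11- to IL-11+ after scaling, with a 95% counting interval of 2.88 to 47.3. All 3 of these IL-11+ tags were in replicate 3, and without that library the ratio has no finite value.

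Within the chordin family, the chordin-like genes *Chrdl1* and *Chrdl2* moved in opposite directions. *Chrdl1* had 73, 67 and 86 tags in the IL-11- libraries and 2, 1 and 8 tags in the IL-11+ libraries. The groups were far apart, with IL-11+ replicates 1 and 2 under the floor and replicate 3 above it. *Chrdl1* fell from 67.8 ± 4.09 to 3.59 ± 3.54 normalized CPM (SD, n = 3 libraries), a log2 fold change of −4.16 (SE 0.382, edgeR's adjusted p = 4.55e-07). Of the 595 genes called lower, 30 had a more negative one. Without IL-11+ replicate 3 the log2 fold change was −5.34. The summed tags, 226 against 11, give a ratio of 18.4 of IL-11- to IL-11+ with a 95% counting interval of 10.1 to 37.4.

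*Chrdl2* had 16, 12 and 13 tags in the IL-11- libraries and 35, 48 and 28 tags in the IL-11+ libraries. Its counts were low, yet the lowest IL-11+ library exceeded the highest IL-11- library. It rose from 12.4 ± 2.5 to 37.5 ± 11.0 normalized CPM (SD, n = 3 libraries), with a log2 fold change of 1.59 (SE 0.316, edgeR's adjusted p = 0.00155). The 41 tags of the IL-11- and 111 of the IL-11+ libraries alone give a ratio of 3.03 of IL-11+ to IL-11-, with a 95% counting interval of 2.1 to 4.44.

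*Chrd*, which encodes chordin itself, had 16, 16 and 15 tags in the IL-11- libraries and 6, 8 and 8 tags in the IL-11+ libraries. These groups did not overlap, but the gene was not called, with a log2 fold change of −0.93 (SE 0.389, edgeR's adjusted p = 0.125). *Bmper* encodes a secreted protein with chordin-type repeats that binds BMPs and chordin and can restrain or promote signalling. It had 24, 23 and 20 tags in the IL-11- libraries and 8, 14 and 12 tags in the IL-11+ libraries. Its IL-11+ libraries were likewise all below the IL-11- libraries, and it was not called either, with a log2 fold change of −0.82 (SE 0.343, edgeR's adjusted p = 0.125). At this depth the counting intervals of both ratios of IL-11+ to IL-11- were wide, 0.3 to 0.885 for *Chrd* and 0.364 to 0.869 for *Bmper*.

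*Twsg1* encodes twisted gastrulation, which forms a complex with chordin and BMPs and can help either to hold or to release the ligand. It had 123, 109 and 167 tags in the IL-11- libraries and 120, 123 and 120 tags in the IL-11+ libraries. The groups overlapped, with a log2 fold change of 0.03 (SE 0.171, edgeR's adjusted p = 0.932) that ranged from −0.05 with scaling by library size only to 0.15 without IL-11- replicate 3. *Nog* encodes noggin and was under the filter, having 9, 3 and 10 tags in the IL-11- libraries and 2, 2 and 1 tags in the IL-11+ libraries. Its IL-11+ libraries and IL-11- replicate 2 were at or under the floor. The summed 22 against 5 tags give a ratio of 3.94 of IL-11- to IL-11+ with a 95% counting interval of 1.46 to 13.3. Where no filter was set *Nog* was not called (log2 fold change −1.855, edgeR's adjusted p = 0.132).

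Genes are set beside one another by normalized CPM, which carry no correction for how well each gene's tags are captured. On this scale *Grem1* (691.4 ± 27.2 normalized CPM, mean ± SD, n = 3 libraries) led in IL-11- fibroblasts, with its lowest library (665.5) above the highest of *Nbl1* (333.2). *Nbl1* (266.7 ± 70.0), *Twsg1* (119.1 ± 17.3) and *Chrdl1* (67.8 ± 4.09) followed there, also without overlap, and *Bmper* (20.3 ± 3.45) came next. *Chrd*, *Chrdl2*, *Sostdc1* and *Nog* had means of 6.54 to 14.2 normalized CPM in IL-11- fibroblasts, and the libraries of *Chrd*, *Chrdl2* and *Sostdc1* overlapped. In IL-11+ fibroblasts *Grem1* (2114 ± 484.2 normalized CPM) stood further above *Nbl1* (267.9 ± 43.1) and *Twsg1* (122.2 ± 6.79). *Chrdl2* (37.5 ± 11.0) came next in IL-11+ fibroblasts, its lowest library (26.7) above the highest of *Bmper* (14.2). The other 4 genes had IL-11+ means of 0.954 to 7.37 normalized CPM, and the libraries of *Chrdl1* overlapped those of *Chrd*, *Nog* and *Sostdc1*. By its mean *Chrdl1* was thus in place 4 of the 9 in IL-11- and in place 7 in IL-11+ fibroblasts, and *Grem1*, *Nbl1* and *Twsg1* held places 1, 2 and 3 in both. Such comparisons between genes depend on the scale: divided by transcript length, which 5′ tags need not follow, *Grem1* (160.4 to 173.5 per kilobase) and *Nbl1* (108.1 to 185.8) overlapped in IL-11- libraries, and *Chrdl1* went from place 4 to place 8.

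As a pool, the antagonist transcripts were more abundant and less even in every IL-11+ library. The 9 genes together made up 1263, 1215 and 1145 normalized CPM in IL-11- replicates 1, 2 and 3, and 3001, 2599 and 2101 in IL-11+ replicates 1, 2 and 3. Without *Grem1*, the other 8 genes made up 597.7, 495.6 and 456.5 normalized CPM in the IL-11- libraries and 422.9, 445.7 and 489.2 in the IL-11+ libraries, which overlap (exact permutation p = 0.2). *Grem1* took 52.7%, 59.2% and 60.1% of the 9 genes' tags in the IL-11- libraries and 85.9%, 82.8% and 76.7% in the IL-11+ libraries. The share of *Chrdl1* was 5.62% ± 0.494 among IL-11- and 0.158% ± 0.179 among IL-11+ fibroblasts. *Grem1* thus carried the larger pool, while the sum of the others did not differ beyond its spread. *Grem1* was set apart with its call known, so a p of a quantity with or without it only describes how the libraries lie.

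BMP ligands were read in the same libraries, from a list of 15 genes of which 11 were in the tables and 7 could be tested. *Bmp4*, *Bmp5* and *Bmp7* were called higher and *Gdf10* lower, beside 3.44% higher and 6.37% lower of all tested genes. The median log2 fold change of the 7 was 0.92. *Bmp7* showed the largest difference of the list, with 24, 18 and 19 tags in the IL-11- libraries and 220, 161 and 136 tags in the IL-11+ libraries, for a log2 fold change of 3.24 (SE 0.251, edgeR's adjusted p = 8.31e-08). The groups were also separate for *Bmp5*, which had 149, 176 and 113 tags in the IL-11- libraries and 288, 294 and 249 in the IL-11+ libraries, for a log2 fold change of 1.07 (SE 0.201, edgeR's adjusted p = 0.000905). *Bmp4*, with 253, 258 and 230 tags against 557, 421 and 416, had a log2 fold change of 1.07 (SE 0.186, edgeR's adjusted p = 0.00046). Both *Bmp4* and *Bmp5* lie close to the fold threshold and were not called with scaling by library size only or without IL-11- replicate 3, nor *Bmp4* without IL-11+ replicate 1, with log2 fold changes down to 0.88 for *Bmp4* and 0.86 for *Bmp5*. *Bmp2*, at 95.8 ± 6.95 and 181.5 ± 6.54 normalized CPM, had an adjusted p of 0.000544 from edgeR but a log2 fold change of 0.92, under the threshold. *Gdf10*, an inhibitory relative of the BMPs, had 27, 7 and 37 tags in the IL-11- libraries and 2, 4 and 11 in the IL-11+ libraries. Those groups overlapped, and its call (log2 fold change −1.87, SE 0.553, edgeR's adjusted p = 0.0261) was lost without any one of IL-11- replicates 1 and 3 and IL-11+ replicates 1 and 2, where its adjusted p from edgeR reached up to 0.13. Its log2 fold changes ranged from −2.72 without IL-11+ replicate 3 to −1.49 without IL-11- replicate 3.

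Antagonist and ligand tags were higher together in IL-11+ libraries. Per tag of the 11 ligands there were 2.27, 2.09 and 2.41 antagonist tags in replicates 1, 2 and 3 of the IL-11- group, and 2.21, 2.32 and 2.1 in those of the IL-11+ group. The ratio overlapped between the groups (exact permutation p = 0.8). The 8 antagonists other than *Grem1* gave 1.07, 0.854 and 0.962 tags per ligand tag in the IL-11- libraries and 0.312, 0.398 and 0.489 in the IL-11+ libraries, without overlap (exact permutation p = 0.1). *Grem1* alone gave 3.12 ± 0.468 tags per *Bmp4* tag among IL-11- and 4.49 ± 0.499 among IL-11+ fibroblasts (SD, n = 3 libraries, exact permutation p = 0.1). These ratios concern transcripts only.

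Of 7 BMP receptor genes 5 passed the filter, and none of these was called by edgeR's quasi-likelihood test, its exact test or DESeq2, although 3 had an unadjusted p under 0.05. By the main rule 3.44% of all tested genes were called higher and 6.37% lower, so none of 5 is near that share. The receptor nearest to a call was *Acvr1*, of type I. It had 80, 80 and 85 tags in the IL-11- libraries and 131, 121 and 153 tags in the IL-11+ libraries. Its groups did not overlap, and its log2 fold change of 0.88 (SE 0.169, edgeR's adjusted p = 0.00116) was under the threshold. *Bmpr2*, a type II receptor of BMPs, had 167.9 ± 23.8 normalized CPM among IL-11- and 201.6 ± 34.7 among IL-11+ fibroblasts, which overlap. *Acvr2b*, a type II receptor under the filter, had 9, 17 and 12 tags against 4, 3 and 3, without overlap, and was called lower where no filter was set (log2 fold change −1.69, edgeR's adjusted p = 0.0333).

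Other extracellular modulators of BMP signalling moved both ways: of 20 genes considered 16 were in the tables and 10 were tested. Of these 1 was higher, beside 3.44% of all tested genes, and 2 were lower, beside 6.37%. Their median log2 fold change was −0.08. The SMOC genes, which encode secreted matrix proteins that modulate BMP activity, differed in direction. *Smoc1* had 31, 38 and 22 tags in the IL-11- libraries and 130, 111 and 56 tags in the IL-11+ libraries, for a log2 fold change of 1.87 (SE 0.308, edgeR's adjusted p = 0.000281). *Smoc2* had 67, 46 and 40 tags against 16, 22 and 9, a log2 fold change of −1.54 (SE 0.334, edgeR's adjusted p = 0.0031). *Rgmb*, a membrane-anchored BMP coreceptor, was called lower at a log2 fold change of −1.01 (SE 0.237, edgeR's adjusted p = 0.00593), a call on the threshold that was lost in 7 of 15 alternatives. Its log2 fold changes there ranged from −1.23 to −0.86 with the adjusted p under 0.05 throughout, so the lost calls missed the fold threshold only. *Rgma*, its relative under the filter, had 19, 12 and 9 tags against 1, 3 and 1 and was called lower where no filter was set (log2 fold change −2.73, edgeR's adjusted p = 0.000598). *Fstl1*, a secreted follistatin-like protein, had 1100 ± 197.8 and 1703 ± 140.8 normalized CPM and was not called (log2 fold change 0.63, edgeR's adjusted p = 0.0193). *Bmp1*, whose tolloid-type protease cleaves chordin, overlapped between the groups at 142 ± 15.3 and 160 ± 33.0 normalized CPM.

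Of 12 SMADs and target genes of BMP signalling 10 passed the filter, and 0 of these were called by edgeR's quasi-likelihood test, its exact test or DESeq2, while 1 had an unadjusted p under 0.05. The latter was *Id1*, a direct transcriptional target, with 249, 259 and 262 tags in the IL-11- libraries and 172, 202 and 140 tags in the IL-11+ libraries. Its groups did not overlap, with a log2 fold change of −0.42 (SE 0.178, edgeR's adjusted p = 0.13). With the replicate block the adjusted p from edgeR was 0.0322 at a log2 fold change of −0.44, under the fold threshold. *Id3*, another target, had 1522 ± 84.8 normalized CPM among IL-11- and 1197 ± 143.5 among IL-11+ fibroblasts, again without overlap (log2 fold change −0.35, SE 0.166, edgeR's adjusted p = 0.19). Of the 10 log2 fold changes, 8 were below 0, with a median of −0.21. By the main rule 3.44% of all tested genes were called higher and 6.37% lower, so 0 of 10 is near that share. Groups without overlap were also frequent, with 14.5% of all tested genes higher and 16.7% lower. *Smad7*, an inhibitory SMAD that BMP and TGFβ signalling induce, overlapped at 81.1 ± 14.1 and 96.9 ± 8.46 normalized CPM, and *Smad1*, which BMP receptors activate, lay higher without overlap at 94.7 ± 12.7 and 116.5 ± 15.4 (log2 fold change 0.30, edgeR's adjusted p = 0.31). The 2 genes under the filter lay lower without overlap, *Id4* with 8, 18 and 24 tags against 5, 3 and 7 and *Smad9* with 9, 13 and 9 against 1, 4 and 3. Where no filter was set *Id4* was called lower (log2 fold change −1.51, edgeR's adjusted p = 0.0241) and *Smad9* was not (−1.72, edgeR's adjusted p = 0.0632).

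**Figure D2:**
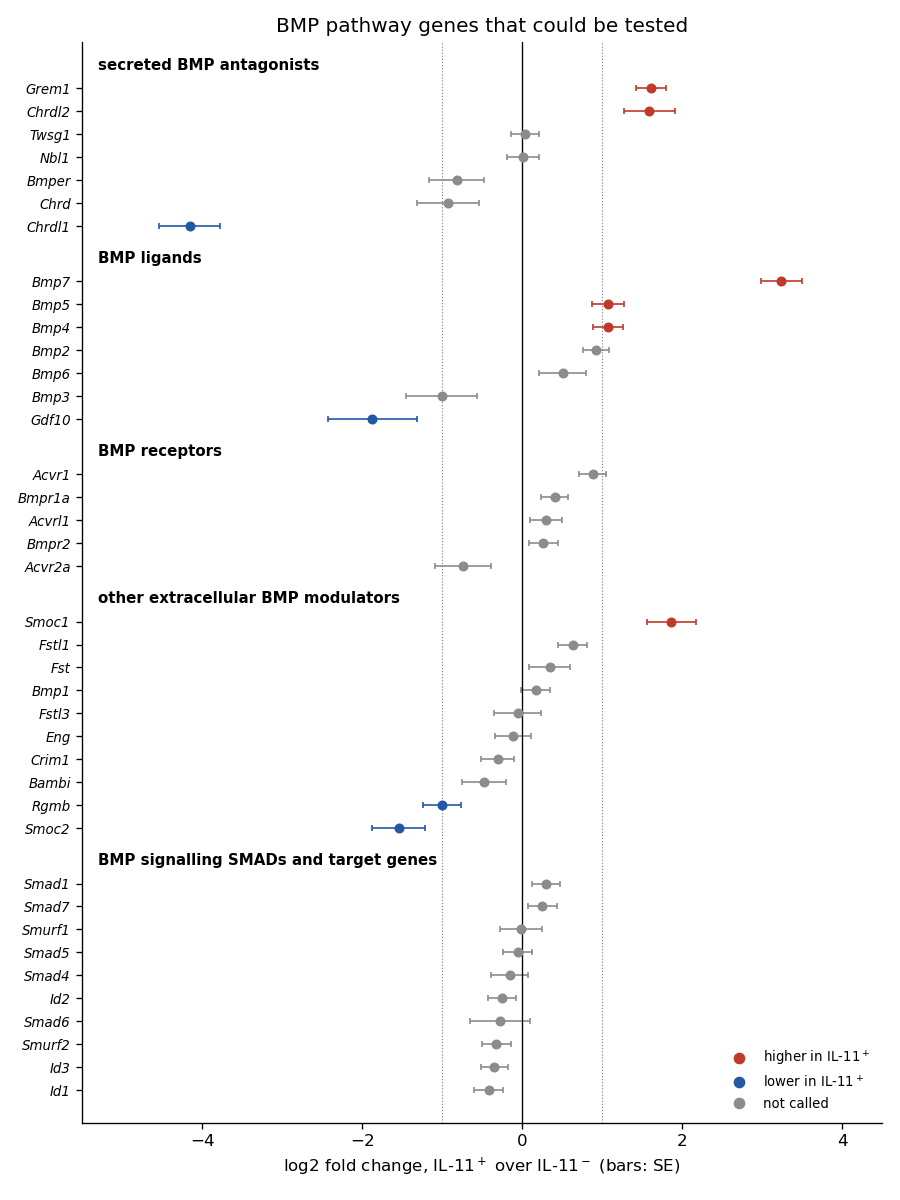
Log2 fold change (x axis, IL-11+ over IL-11-, bars are the SE from edgeR) of each tested gene of the BMP pathway, by list, with dotted lines at the fold threshold of 2. Red and blue points were called higher and lower and grey points were not called; *Grem1*, *Chrdl2*, *Bmp7* and *Smoc1* lie on the right and *Chrdl1*, *Smoc2* and *Gdf10* on the left, while receptors and SMADs and targets lie between the lines.

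Markers of the cells that the gate could hold also differed between the groups. Fibroblast markers were abundant as a sum in all libraries, though *Thy1* had only 73.4 ± 25.5 normalized CPM in IL-11- fibroblasts. Of the 9 markers, 2 (*Col3a1* and *Pdpn*) were called higher in IL-11+ fibroblasts. Under the fold threshold, *Thy1* (log2 fold change 0.88, edgeR's adjusted p = 0.00832) and *Dcn* (0.67, edgeR's adjusted p = 0.0462) lay higher without overlap. So did *Col1a2* (0.42, edgeR's adjusted p = 0.14). *Dpt* (−0.96, edgeR's adjusted p = 0.000826) and *Lum* (−0.64, edgeR's adjusted p = 0.0378) lay lower without overlap, also under that threshold. *Col1a1* and *Pdgfra* overlapped. The sum of the 9, led by *Dcn*, was 23645, 23607 and 26338 normalized CPM in IL-11- replicates 1, 2 and 3 and 42223, 34422 and 31154 in IL-11+ replicates 1, 2 and 3. All 8 smooth muscle markers were lower in IL-11+ fibroblasts. Their sum, in which *Myh11* led in IL-11- libraries only, was 2662, 3312 and 4163 normalized CPM in the IL-11- libraries and 98.6, 156.4 and 344.3 in the IL-11+ libraries. All 3 markers of interstitial cells of Cajal were lower too, and their sum was 271.2, 167.7 and 257.8 against 21.2, 20.3 and 50.5 normalized CPM. *Ano1* led this sum in IL-11- libraries and *Etv1* in IL-11+ libraries, as *Etv1* was lower by less (log2 fold change −1.12) than *Ano1* (−4.59) and *Kit* (−4.34). IL-11+ replicate 3, which held most of the *Chrdl1* tags of its group, had the highest sum of its group for both lists, and *Kit* was at 0 tags in IL-11+ replicates 1 and 2. Of 7 pericyte markers *Rgs5*, *Notch3*, *Cspg4* and *Mcam* were called lower, whereas *Abcc9* (log2 fold change 0.66, edgeR's adjusted p = 0.0167) and *Kcnj8* (0.71, edgeR's adjusted p = 0.0394) had higher means in IL-11+ fibroblasts, under the fold threshold, and *Kcnj8* overlapped. The sum of the 7 was 2681, 2289 and 2105 against 1076, 902.6 and 803 normalized CPM, of which *Rgs5* made up 1863, 1602 and 1478 against 197.1, 176.7 and 196.5.

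Of 3 enteric glial markers, *Gfap* could be tested and was lower, and the sum of the 3 was 25.8, 33.0 and 28.7 normalized CPM in the IL-11- libraries and 1.06, 0 and 0.954 in the IL-11+ libraries, where *Sox10* and *S100b* were at 0 tags beside 2 to 9 in the IL-11- libraries. The called genes of the smooth muscle, Cajal, pericyte and glial lists move in the same direction as *Chrdl1* and opposite to *Grem1* and *Chrdl2*, and their part in those results was not tested. The lists of cells that the gate removes held too few tags for any gene to be tested. Mesothelial markers, which the gate does not address, were as rare, with a sum of 13.4, 4.71 and 15.6 against 0, 0 and 1.91 normalized CPM. Endothelial markers summed to 14.3, 7.54 and 10.7 against 2.12, 8.12 and 7.63 normalized CPM. Haematopoietic markers summed to 42.0, 16.0 and 125.6 against 15.9, 6.09 and 10.5 normalized CPM, of which *Hbb-bs* made up 32.5, 0 and 115.8 against 5.3, 0 and 8.58. Epithelial markers summed to 2.86, 0 and 12.3 against 2.12, 1.02 and 3.82 normalized CPM.

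Colonic fibroblast subsets that are known for their place in the BMP gradient were read from a pair of short lists. Crypt-base trophocytes express *Grem1* together with *Cd81*, *Ackr4*, *Cd34* and *Rspo3*. Of these 4 companions, *Cd81*, *Ackr4* and *Cd34* were lower in IL-11+ fibroblasts, where *Grem1* was higher. The sum of the 4 was 676, 678.4 and 457.4 normalized CPM in IL-11- replicates 1, 2 and 3 and 242.7, 262 and 300.4 in IL-11+ replicates 1, 2 and 3, without overlap. *Ackr4* itself had 330, 297 and 101 tags against 92, 81 and 41, and after scaling the groups overlapped, with 82.9 normalized CPM in IL-11- replicate 3 and 97.5 in IL-11+ replicate 1. For subepithelial fibroblasts with high *Pdgfra*, also called telocytes, 2 of 5 tested markers of 6 were higher, namely *Bmp5* and *Bmp7*, which the ligand list holds as well. Their sum, led by *Pdgfra*, was 984.4, 966.7 and 771.9 against 1524, 1330 and 1156 normalized CPM, and *Pdgfra* itself overlapped between the groups. The part of either subset in the antagonists' results was not tested.

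For each called antagonist, the 3 tested genes with the most similar profile were taken as those with the smallest root-mean-square difference of centred log2 values over the 6 libraries. For *Grem1* they were *Alpl* (difference 0.107), *Gpm6b* (0.119) and *Gja1* (0.123). *Gja1*, which encodes the gap junction protein connexin 43, had 423, 441 and 535 tags in the IL-11- libraries and 1283, 1473 and 1063 tags in the IL-11+ libraries. For *Chrdl2* they were *Stat5a* (0.158), *Fgf10* (0.176) and *Nectin2* (0.188). *Fgf10*, a mesenchymal growth factor, had 52, 42 and 57 tags in the IL-11- libraries and 142, 157 and 120 tags in the IL-11+ libraries. For *Chrdl1* they were *Sorbs2* (0.277), *Myocd* (0.31) and *Olfr558* (0.317), and the first 2 had 0, 0 and 2 tags each in IL-11+ replicates 1, 2 and 3. *Myocd*, which encodes the smooth muscle coactivator myocardin, had 23, 36 and 40 tags in the IL-11- libraries.

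In the GRCm38 assembly the genes lie on 9 different chromosomes, and none neighbours another. *Grem1* spans 113746164 to 113758646 on the minus strand of chromosome 2 with 2 exons, and *Nog* is a single exon at 89300638 to 89302332 on the minus strand of chromosome 11. *Chrdl1* lies on the minus strand of chromosome X (143285674 to 143394262, 9 exons) and *Chrdl2* on the plus strand of chromosome 7 (100006172 to 100034728, 11 exons), so that the 2 chordin-like genes with opposite changes are not linked. *Chrd* (chromosome 16, 20733127 to 20742384, plus strand, 23 exons) overlaps *Thpo* on the opposite strand, which had 0 to 3 tags in each library. Of the 50-nt windows from the first 300 nt of each annotated transcript, those of 8 genes occurred in no other gene. For *Chrdl2*, 15 of 955 windows (1.57%) occurred elsewhere, in 245 other genes, so a small part of its tags could map to more than 1 gene.

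RefSeq promoter windows, the 250 bases before the annotated start in GRCm38.p6, were found for 5 of the 9 genes (*Grem1*, *Chrd*, *Nbl1*, *Bmper* and *Twsg1*) and not for *Chrdl1*, *Chrdl2*, *Nog* and *Sostdc1*. They were searched on both strands for GGCGCC, a palindromic element bound by BMP-activated SMADs, for the AP-1 element (TGACTCA or TGAGTCA), the TEAD element (GGAATG) and the cyclic AMP response element (TGACGTCA). GGCGCC occurred once each in the windows of *Grem1*, *Chrd* and *Nbl1*, and in 9.59% of all 32851 promoter windows. These windows are rich in G and C, with 72% for *Grem1*, 78% for *Chrd* and 77.6% for *Nbl1* against a median of 52.4% over all windows. Letters of the other 3 elements were in none of the 5 windows, whereas 4.46% of all windows hold AP-1, 12.6% TEAD and 1.55% the cyclic AMP response element. A match describes the letters only, and here it was shared by a gene that rose, one that was not called with lower values and one whose groups overlapped. The windows of *Grem1* (chr2:113758649-113758898, minus strand, the match beginning 78 bases before the start) and *Chrd* (chr16:20732877-20733126, plus strand, 203 bases before the start) are shown 5′ to 3′ because they set the called gene with the most tags beside one with few, and capitals mark GGCGCC.
Grem1: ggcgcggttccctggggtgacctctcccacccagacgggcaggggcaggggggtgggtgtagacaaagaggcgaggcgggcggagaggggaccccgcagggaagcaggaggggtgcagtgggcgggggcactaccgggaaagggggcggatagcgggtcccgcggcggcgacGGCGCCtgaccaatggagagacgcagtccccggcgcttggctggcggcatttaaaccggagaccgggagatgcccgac
Chrd: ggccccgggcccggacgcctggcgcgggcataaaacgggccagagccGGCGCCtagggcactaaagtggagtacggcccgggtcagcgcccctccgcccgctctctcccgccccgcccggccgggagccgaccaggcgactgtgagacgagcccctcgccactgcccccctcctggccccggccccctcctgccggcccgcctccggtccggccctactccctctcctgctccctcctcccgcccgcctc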

How the data were processed

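Sorted EGFP-Positive and EGFP-Negative cells gave 3 libraries each for 5′Tag-seq. The submitters' processing notes name Cutadapt 1.18, Bowtie2 2.2.5, R 3.5.1 and mm10. The authors trimmed the reads, mapped them in one orientation to RefSeq RNA, and deposited the tag counts of 20327 gene symbols without normalization. How tags of several genes were assigned, and whether molecular identifiers were used, is not given in the sources used here. The methods normalize with the TCC package.

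The members and gene lists were chosen with earlier results of these data known. The 9334 genes that reached 10 tags in 3 or more libraries were scaled by TMM and compared in R 4.3.3 with edgeR 4.0.16 (glmQLFit and glmQLFTest), with Benjamini-Hochberg adjustment over all of them. Calls needed an adjusted p under 0.05 as well as a fold change over 2. The filter's number of libraries was chosen here. Code was tested on simulated data. A counting interval is the exact 95% interval of the ratio of summed tags. Replicate numbers are those of the sample labels. Over the 5064 genes averaging 30 tags or more, deviations of same-numbered libraries from their group means correlated with r of 0.23, 0.20 and 0.27. Differently numbered libraries gave r of −0.21 to −0.01, which centring on 3 libraries pushes down. Genes are not independent replicates in these correlations. The numbers were taken to pair the libraries, which the methods do not state. The main test and the exact permutation p leave this pairing out, and the replicate block takes it in.

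Named genes are the 9 members, members of the lists, *Il11*, and the 3 genes nearest to each called member. *Thpo* was named for its overlap. Some genes are not reported here, and list counts and sums leave them out. Alternatives were RLE, library size only, iterative TMM after TCC (3 iterations), edgeR's exact test, DESeq2 1.42.0, no filter, at least 10 tags in all 6 libraries, the replicate block, each library left out on the 9334 genes of the main filter, and the adjusted p alone. Positions, lengths (the principal coding transcript) and 50-nt windows come from GENCODE mouse release 21 (GRCm38), and promoters from RefSeq (GRCm38.p6).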

Additional observations from a re-analysis of the deposited data

How the results depend on the processing

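The calls of *Grem1*, *Chrdl2* and *Chrdl1* kept their direction and their side of the threshold in every alternative in which the gene was tested, and *Chrd*, *Bmper*, *Twsg1* and *Nbl1* stayed uncalled. Log2 fold changes ranged from 1.45 to 1.77 for *Grem1*, from 1.36 to 1.79 for *Chrdl2* and from −5.34 to −3.73 for *Chrdl1*. With the replicate block the log2 fold changes were 1.59 for *Grem1*, 1.57 for *Chrdl2* and −4.17 for *Chrdl1*, and the block changed no call among the antagonists or the other BMP pathway genes, of which 7 were called with and without it. The numbers of antagonists called lower were 2 without a filter, where *Sostdc1* entered the test, and 0 with at least 10 tags in all 6 libraries, where *Chrdl1* did not. That stricter filter also left 256 genes called lower among fewer tested genes, and the adjusted p alone called 638 genes higher because it sets no fold threshold. Leaving out each library in turn gave 3 to 7 called pathway genes beside the antagonists, with 3 without IL-11- replicate 3 and 4 without IL-11+ replicate 1, 267 to 329 genes called higher and 483 to 580 called lower, and *Bmp4* and *Bmp5* were among the calls lost. Without a filter 9 pathway genes were called, with *Acvr2b*, *Id4* and *Rgma* gained and *Rgmb* lost. The adjusted p of that fit are not comparable with those of the main fit. The differences of *Nog*, *Sostdc1*, *Chrd* and *Bmper* rest on few tags, 27, 34, 69 and 101 over all libraries. Whether depth kept any of them from being called was not tested. In the main fit the log2 fold changes of *Chrd* (−0.93) and *Bmper* (−0.82) were also under the fold threshold.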
